A study of Mus musculus with 4 samples.

Results

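The 9 genes described here are P2ry12, Tmem119, Cx3cr1, Csf1r, Siglech, Sall1, Trem2, Tgfbr1 and Selplg, which are commonly used as markers of microglia in the resting, homeostatic state. They were taken as a list of gene names from the 31053 genes measured. No count was used to pick them, but earlier results of these data were known. Microglia are the resident macrophages of the brain tissue. They live on signalling through the Csf1r receptor, and TGF-beta signalling through Tgfbr1 is known to keep them in the homeostatic state, in which the transcription factor Sall1 separates them from macrophages elsewhere. Border-associated macrophages of the meninges and vessels share Csf1r and Cx3cr1 with microglia and are marked by Mrc1 and F13a1.

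Single-nucleus RNA-seq was carried out on brain tissue of male C57BL/6J mice aged 8 weeks, 4 weeks after AAV (adeno-associated virus) vectors were injected at the cisterna magna. AAV-VEGF-C delivered full-length mouse VEGF-C, and AAV-CTRL delivered a soluble part of VEGF receptor 3 that does not bind VEGF-C, fused to an immunoglobulin tail, so that both groups received a virus and a secreted protein. Brains of 5 mice were pooled per AAV group, and 1 library each was made from cortex of AAV-CTRL mice, cortex of AAV-VEGF-C mice, striatum of AAV-CTRL mice and striatum of AAV-VEGF-C mice, so that both regions of an AAV group came from the same mice. Values are given in this order of libraries throughout unless the library is named. With 1 library per group no difference has a replicate check, no test was run, and intervals are 95% intervals that cover counting error only.

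The 4 libraries held 17168 to 23724 nuclei and 63165470 to 78332657 UMIs (unique molecular identifiers, 1 per counted transcript), of which 16362 to 21757 nuclei remained after doublets were left out. Levels are given as CPM, the UMIs of a gene per 1000000 UMIs of the same nuclei. The region labels were checked against region markers. The striatal projection neuron genes Ppp1r1b (62.9, 75.7, 18.8 and 18.5 CPM over all kept nuclei) and Drd1 (26.8, 34.0, 11.3 and 9.96 CPM) had lower values under the striatum label. Slc17a7, a glutamate transporter gene of cortical neurons, was lower there too (419, 459, 58.7 and 42.1 CPM). The region names below are therefore the labels of the libraries. Vegfc RNA was at 12, 12, 13 and 12 CPM over all kept nuclei and did not separate the AAV groups at this level. Whether these counts capture the vector transcript was not tested. The paper reports raised VEGF-C protein in CSF and brain by ELISA, and raised Vegfc in smooth muscle cells.

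Nuclei were called microglia when they held at least 2 UMIs of Inpp5d, Ly86 and Fcrls together, and macrophages when they held at least 2 of Mrc1 and F13a1 together. None of the 9 genes was used for these gates. This gave 583, 657, 443 and 471 microglia, or 3.56% (3.28 to 3.86), 3.43% (3.18 to 3.70), 2.04% (1.85 to 2.23) and 2.83% (2.58 to 3.09) of the kept nuclei. Macrophages numbered 80, 84, 186 and 126, the 40, 31, 88 and 48 nuclei that met both gates included, and 15699, 18407, 21128 and 16073 nuclei met neither. The microglia were shallow, with median UMIs of 1525, 1523, 1534 and 1856, against 2630, 2825, 2189.5 and 2615 in the other nuclei.

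The gate was compared with clusters of the same nuclei, which did not use its threshold and were named from marker genes. Inpp5d, Ly86 and Fcrls could enter the clustering and were among the markers of microglia. Gate and clusters are thus not independent, and part of their overlap is built in. The gate held 77.6%, 79.7%, 80.3% and 88.3% of the nuclei in microglia-like clusters. Of the gated microglia, 84.9%, 86.6%, 78.1% and 88.5% lay in microglia-like clusters, and 7.20%, 6.70%, 8.13% and 3.61% lay in neuron-like clusters. The microglia-like nuclei formed 2 clusters that divided by region label, 1 with 636 and 709 nuclei of the cortex libraries and 2 and 1 of the striatum libraries, and the other with 2, 5, 429 and 471 nuclei. The 6 neuronal marker genes summed to 8062, 8331, 8246 and 5160 CPM in the gated microglia and to 4682, 4404, 3827 and 3619 CPM in those gated nuclei that also lay in a microglia-like cluster. Mrc1 and F13a1 were low in the gated microglia by construction, since nuclei that met both gates were counted as macrophages. Ratios below are therefore given for all gated microglia and again for the gated nuclei inside microglia-like clusters.

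The upstream sequences of a pair of members are shown because they stand at the opposite ends of the results below: P2ry12 had the most UMIs outside the microglia gate and Siglech the largest share of its UMIs inside it. Each runs 5′ to 3′ over the 250 bases before the gene's start on its own strand (RefSeq, GRCm38.p6), at chr3:59262986-59263235 on the minus strand for P2ry12 and at chr7:55767934-55768183 on the plus strand for Siglech. Capitals mark GGAA or its reverse complement TTCC, the core letters of ETS-family motifs, a family that includes the myeloid factor PU.1.
P2ry12: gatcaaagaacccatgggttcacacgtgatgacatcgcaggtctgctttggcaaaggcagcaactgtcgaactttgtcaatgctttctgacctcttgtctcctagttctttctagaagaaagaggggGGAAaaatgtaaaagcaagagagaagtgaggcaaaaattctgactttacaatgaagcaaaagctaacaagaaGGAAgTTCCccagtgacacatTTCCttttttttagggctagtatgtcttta
Siglech: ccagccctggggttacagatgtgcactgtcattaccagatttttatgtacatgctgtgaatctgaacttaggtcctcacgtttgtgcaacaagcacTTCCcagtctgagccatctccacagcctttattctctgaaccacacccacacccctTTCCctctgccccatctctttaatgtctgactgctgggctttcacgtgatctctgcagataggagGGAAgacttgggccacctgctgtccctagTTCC

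Both windows held 4 such cores, a number that 33.4% of all 32851 promoter windows in the table reach or exceed, so that these letters set the pair neither apart from each other nor from the rest. Of the 9 genes, 6 had an entry in the promoter table. The longer motifs GAGGAAGT (PU.1), GTCTAGAC (SMAD) and TGTGGTTT (RUNX) and a MEF2 motif, searched on both strands, were not in any of these members' windows. They were in 3.20%, 0.213%, 1.78% and 0.164% of all windows, and the core was searched after those had given no match.

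All 9 genes were far higher in gated microglia than in the nuclei of neither gate, in each of the 4 libraries. A ratio was counted as past the fold when it was at least 0.58 on the log2 scale in genes with at least 20 UMIs in the pair, and 9 of 9 genes were past it on the higher side in every library, where 37.0%, 35.6%, 34.1% and 36.5% of all genes tested were. The median log2 ratio of the 9 genes was 5.90, 6.22, 5.87 and 6.25, beside 0.32, 0.30, 0.25 and 0.28 over all genes tested. The 9 genes, which were not used to choose these nuclei, thus all marked them. The genes themselves spread widely in this ratio, from 3.79 for Sall1 in the library labelled striatum AAV-CTRL to 7.38 for Siglech in that labelled striatum AAV-VEGF-C.

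**Figure D1:**
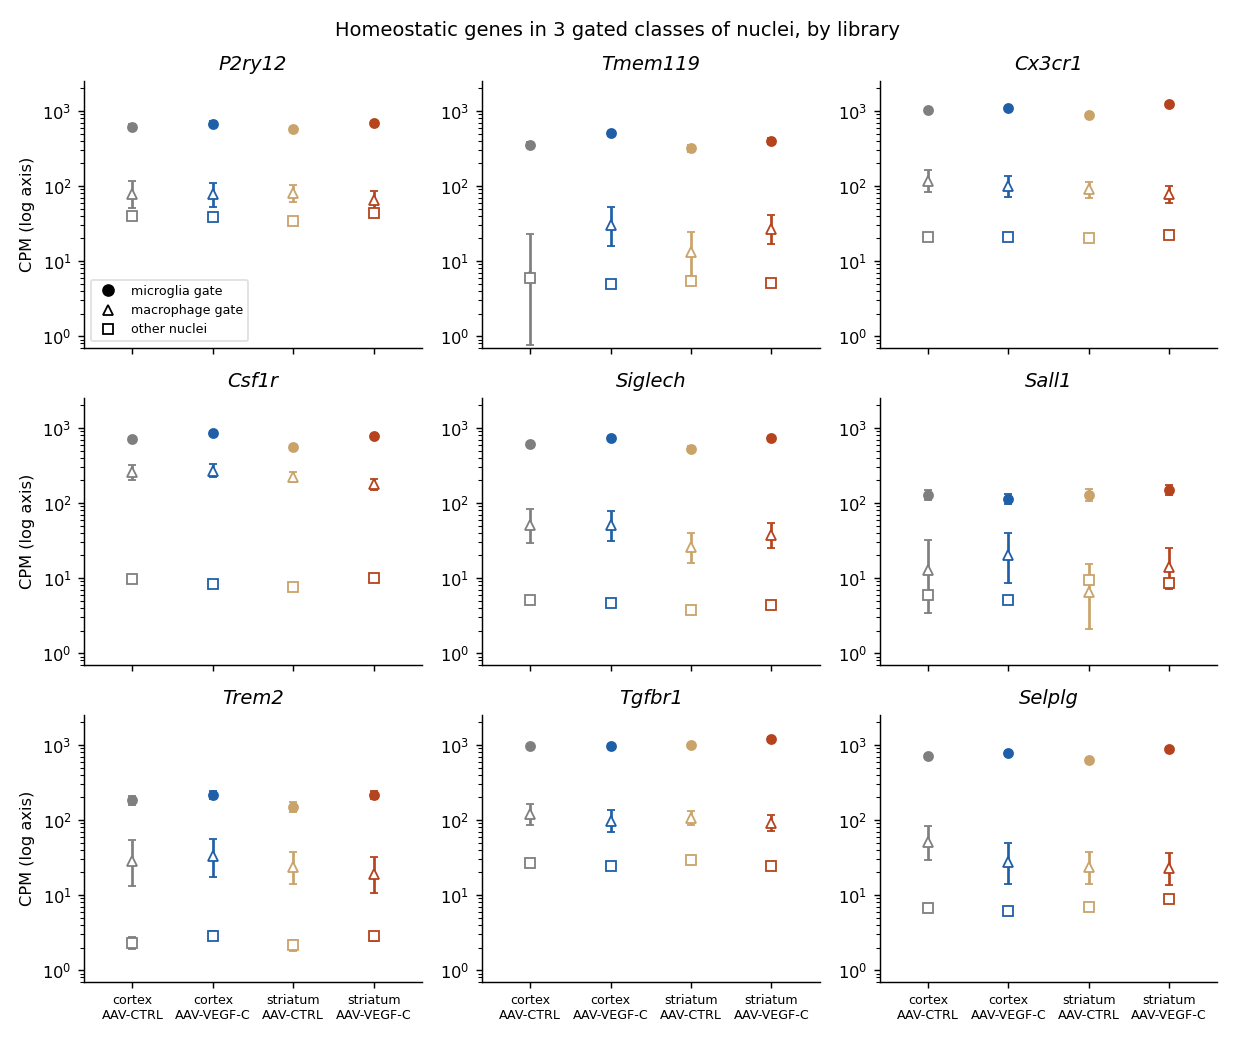
Level of each of the 9 genes (CPM on a log axis, UMIs summed over the nuclei of a gate) in microglia, macrophages and other nuclei of the 4 libraries, with 95% exact Poisson intervals. Microglia lie above macrophages and other nuclei in every panel and library, and the gap between macrophages and microglia is narrowest for Csf1r.

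P2ry12 encodes the purinergic receptor by which microglial processes follow ADP (ENSMUSG00000036353, chromosome 3, 59216272 to 59262871, minus strand, GENCODE vM21 on GRCm38). It was at 618, 677, 567 and 688 CPM in microglia, at 79.1, 78.1, 79.7 and 65.6 CPM in macrophages and at 40.1, 38.1, 34.1 and 44.0 CPM in the other nuclei. Microglia were thus 15.4- to 17.8-fold above the other nuclei. A UMI of P2ry12 was found in 69.1%, 69.3%, 66.8% and 67.9% of microglia and in 12.3%, 12.3%, 9.38% and 13.7% of the deeper other nuclei. After every nucleus was thinned to 1000 UMIs, which left out 5 to 24 microglia and 418 to 1443 other nuclei per library, these shares were 49.2% to 54.0% and 3.05% to 3.75%.

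Most P2ry12 transcripts were nevertheless counted outside microglia. The microglia gate held 25.6% (24.1 to 27.2), 25.0% (23.6 to 26.5), 20.3% (18.9 to 21.8) and 21.4% (20.0 to 22.8) of all its UMIs, while the far more numerous neuron-like nuclei held 60.6%, 60.9%, 60.0% and 62.8%. In neuron-like nuclei the level was 41.9, 39.4, 40.2 and 52.2 CPM, against 920 to 941 CPM in microglia-like nuclei. The P2ry12 gene lies with 100% of its length inside Med12l, a gene on the opposite strand that encodes a Mediator subunit paralogue, and the exons of both share 9 bases. Med12l was counted at 167, 159, 230 and 214 CPM in neuron-like nuclei and at 313, 297, 261 and 314 CPM in microglia-like nuclei. The strand and intron settings of the counting are not given in the sources used here, so the P2ry12 values outside microglia are uncertain, and the part of Med12l in them was not tested.

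Cx3cr1 encodes the receptor for fractalkine, the neuronal chemokine Cx3cl1 (ENSMUSG00000052336, chromosome 9, 119901616 to 120069879, minus strand). It was at 1023, 1086, 887 and 1253 CPM in microglia, 117, 101, 90.2 and 77.2 CPM in macrophages and 21.1, 21.1, 20.2 and 22.0 CPM in the other nuclei. A UMI was found in 77.7% to 84.5% of microglia, in 23.8% to 30.0% of macrophages and in 5.41% to 7.51% of other nuclei, and after thinning in 64.0% to 70.9%, 10.5% to 16.7% and 2.12% to 2.54%. By cluster class, the levels in microglia-like (1542 to 1670 CPM), macrophage-like (236 to 312 CPM), choroid plexus-like (118 to 169 CPM) and ependymal-like nuclei (66.3 to 102 CPM) followed in this order with no overlap between neighbours over the libraries. The annotated Cx3cr1 gene spans 168264 bases and overlaps 9 other genes, 3 of them on its own strand (Gorasp1, Csrnp1 and Xirp1), so its values in these last classes are uncertain. Its ligand Cx3cl1 was at 304, 312, 154 and 170 CPM in the other nuclei and at 286, 290, 130 and 123 CPM in the gated microglia. The level of Cx3cl1 in the gated microglia was thus not above that of the other nuclei, and the part of background RNA in it was not tested.

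Csf1r encodes the receptor for the growth factors Csf1 and Il34 and is expressed across mononuclear phagocytes (ENSMUSG00000024621, chromosome 18, 61100598 to 61132149, plus strand). It was at 706, 854, 552 and 785 CPM in microglia and at 256, 270, 220 and 177 CPM in macrophages, with 9.73, 8.41, 7.49 and 9.98 CPM in the other nuclei. It had the smallest ratio of microglia over macrophages of the 9 genes in every library, at 2.76-, 3.17-, 2.52- and 4.43-fold. A UMI was found in 67.3% to 74.9% of microglia and 46.0% to 56.0% of macrophages, against 2.18% to 3.43% of other nuclei, and after thinning in 51.1% to 63.5%, 25.0% to 39.7% and 0.960% to 1.49%. Csf1r shares 873 exon bases with Hmgxb3, a gene on the opposite strand, whose part in these values was not tested. The ligands of Csf1r were far below the receptor in the gated microglia. Csf1 was at 17.0, 12.1, 46.7 and 26.6 CPM and Il34 at 40.2, 25.6, 25.7 and 33.1 CPM. In the other nuclei Csf1 was at 13.1, 13.1, 19.5 and 19.5 CPM and Il34 at 41.1, 41.6, 25.7 and 22.5 CPM. Csf1 was thus above the other nuclei in the library labelled striatum AAV-CTRL, with a log2 ratio of 1.26 (0.81 to 1.67). For Il34 the ratio was -0.70 (-1.23 to -0.21) in cortex AAV-VEGF-C and 0.56 (0.04 to 1.03) in striatum AAV-VEGF-C. The other intervals of both ligands spanned 0.

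The difference of Csf1r between both gates turned on how macrophages were chosen. Of the gated macrophages, 50%, 54.8%, 54.8% and 30.2% lay in the macrophage-like cluster, which was led by Mrc1, F13a1 and class II histocompatibility genes, and 13, 10, 33 and 45 lay in neuron-like clusters. Against the macrophages inside that cluster, the log2 ratio of Csf1r in gated microglia was -0.03 (-0.47 to 0.45), 0.11, -0.37 (-0.67 to -0.06) and -0.33 (-0.69 to 0.04), so that its sign turned in 3 of the 4 libraries. Over whole cluster classes, microglia-like nuclei held 929 to 1168 CPM and macrophage-like nuclei 531 to 757 CPM. These classes use neither gate's threshold, though the gate genes were among their markers. With both sides held to their own clusters, Csf1r was at 1098, 1218, 983 and 1081 CPM in gated microglia and at 721, 791, 715 and 991 CPM in gated macrophages, so that the negative ratios arose where the clusters limited the macrophages alone. The other 8 genes kept a positive ratio against macrophages inside the cluster wherever a ratio could be formed, the lowest being 0.90 for Trem2 in the library labelled striatum AAV-CTRL. For Tmem119 and Sall1 that cluster held 0 to 2 UMIs in the gated macrophages of a library.

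Tgfbr1 encodes the type I receptor for TGF-beta (ENSMUSG00000007613, chromosome 4, 47353222 to 47414931, plus strand). It was at 969, 981, 983 and 1193 CPM in microglia, 120, 98.2, 107 and 91.3 CPM in macrophages and 26.7, 24.0, 29.2 and 24.7 CPM in the other nuclei. It was not confined to microglia: fibroblast-like nuclei held 178, 140, 167 and 147 CPM, and the microglia gate held 44.5%, 43.1%, 33.7% and 44.9% of its UMIs. A UMI was found in 75.5% to 82.2% of microglia and 7.30% to 8.03% of other nuclei, and after thinning in 63.5% to 68.2% and 2.76% to 3.36%. The partner receptor Tgfbr2 was at 270, 278, 289 and 361 CPM in microglia, 3.65, 3.94, 3.32 and 3.85 above the other nuclei on the log2 scale. The ligand Tgfb1 was itself a gene of the gated microglia, at 118, 123, 111 and 134 CPM against 3.8, 3.88, 5.16 and 4.37 CPM in the other nuclei. The ligands Tgfb2 (18.8 to 38.1 CPM in microglia) and Tgfb3 (2.26 to 8.50 CPM) had counting intervals against the other nuclei that spanned 0 in all 4 libraries.

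Siglech encodes a receptor of the Siglec family (ENSMUSG00000051504, chromosome 7, 55768178 to 55778925, plus strand), and Trem2 encodes a lipid-sensing receptor (ENSMUSG00000023992, chromosome 17, 48346401 to 48354147, plus strand). Siglech was at 608, 737, 530 and 727 CPM in microglia, 50.6, 50.4, 26.1 and 37.3 CPM in macrophages and 5.14, 4.66, 3.75 and 4.36 CPM in the other nuclei. Its fold over the other nuclei was the highest of the 9 genes in every library, from 118 to 167, and the gate held 71.7%, 73.9%, 67.4% and 72.7% of its UMIs. A UMI of Siglech was found in 61.9% to 71.8% of microglia and 0.966% to 1.46% of other nuclei, and after thinning in 48.4% to 55.6% and 0.472% to 0.703%. Trem2 was at 183, 215, 149 and 214 CPM in microglia, 28.5, 32.7, 23.5 and 19.3 CPM in macrophages and 2.30, 2.88, 2.13 and 2.81 CPM in the other nuclei. Its macrophage values rest on 9, 13, 18 and 15 UMIs. A UMI of Trem2 was found in 28.4% to 35.3% of microglia and 0.620% to 1.04% of other nuclei, and after thinning in 18.9% to 23.2% and 0.290% to 0.454%.

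Both proteins signal through the adapter Tyrobp (DAP12). Tyrobp was at 124, 170, 67.6 and 138 CPM in microglia and at 3.19, 3.74, 3.50 and 4.0 CPM in the other nuclei. Its value in the library labelled striatum AAV-CTRL was the lowest of the 4, as were those of Siglech and Trem2. The log2 ratio of that library over the one labelled cortex AAV-CTRL was -0.88 for Tyrobp, -0.20 for Siglech and -0.29 for Trem2. In the striatum libraries AAV-VEGF-C over AAV-CTRL was at 1.03, 0.45 and 0.52 in this order. The other adapter of this kind, Hcst (DAP10), gave 2 to 5 UMIs per library in microglia. Apoe, the gene of an apolipoprotein that Trem2 binds and that astrocytes make in quantity, was at 494, 390, 743 and 458 CPM in microglia and at 314, 351, 511 and 480 CPM in the other nuclei.

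Selplg encodes PSGL-1, the ligand of the selectins on leukocytes (ENSMUSG00000048163, chromosome 5, 113818536 to 113832644, minus strand). It was at 716, 773, 628 and 888 CPM in microglia, 50.6, 27.7, 23.5 and 23.1 CPM in macrophages and 6.66, 6.15, 6.95 and 8.73 CPM in the other nuclei. It thus separated both gates strongly, with log2 ratios of microglia over macrophages of 3.82, 4.80, 4.74 and 5.26. A UMI was found in 68.8% to 79.0% of microglia, 8.06% to 16.2% of macrophages and 1.85% to 2.91% of other nuclei, and after thinning in 55.1% to 64.4%, 2.33% to 7.69% and 0.863% to 0.971%. The selectins Selp and Sele had 0 to 1 UMIs each in the gated microglia, apart from 10 UMIs of Selp in the library labelled striatum AAV-CTRL.

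Tmem119 encodes a membrane protein used as a surface marker of microglia, whose role there is not well known (ENSMUSG00000054675, chromosome 5, 113793729 to 113800516, minus strand). It was at 354, 508, 316 and 402 CPM in microglia and at 5.91, 4.94, 5.42 and 5.14 CPM in the other nuclei. In macrophages it gave 2, 12, 10 and 21 UMIs, or 6.32, 30.2, 13.1 and 27.0 CPM. The macrophage-like cluster held 0, 1, 4 and 3 UMIs of it, while fibroblast-like nuclei held 54.0, 37.8, 36.8 and 47.5 CPM, the second level among the 12 classes as a mean over libraries. Smooth muscle-like nuclei, at 7.85, 46.6, 20.6 and 17.7 CPM from 2 to 16 UMIs, were above them in the library labelled cortex AAV-VEGF-C. A UMI was found in 48.9%, 58.1%, 43.1% and 53.1% of microglia, and after thinning in 35.8%, 45.2%, 32.5% and 36.5%. In the other nuclei these shares were 1.55% to 1.91% and 0.752% to 0.855%.

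Sall1 encodes a zinc finger transcription factor (ENSMUSG00000031665, chromosome 8, 89027235 to 89044162, minus strand). It was at 128, 114, 129 and 151 CPM in microglia, with 4, 8, 5 and 11 UMIs in macrophages and 5.93, 5.15, 9.31 and 8.55 CPM in the other nuclei. The gate held 32.5%, 29.2%, 17.8% and 23.4% of its UMIs. Ependymal-like (27.1 to 54.0 CPM) and oligodendrocyte-like nuclei (20.4 to 31.0 CPM) also had it. The macrophage-like cluster had 0, 1, 0 and 1 UMIs of Sall1. A UMI was found in 19.2% to 26.3% of microglia and 1.81% to 3.05% of other nuclei, and after thinning in 12.4% to 16.3% and 0.807% to 1.37%.

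**Figure D2:**
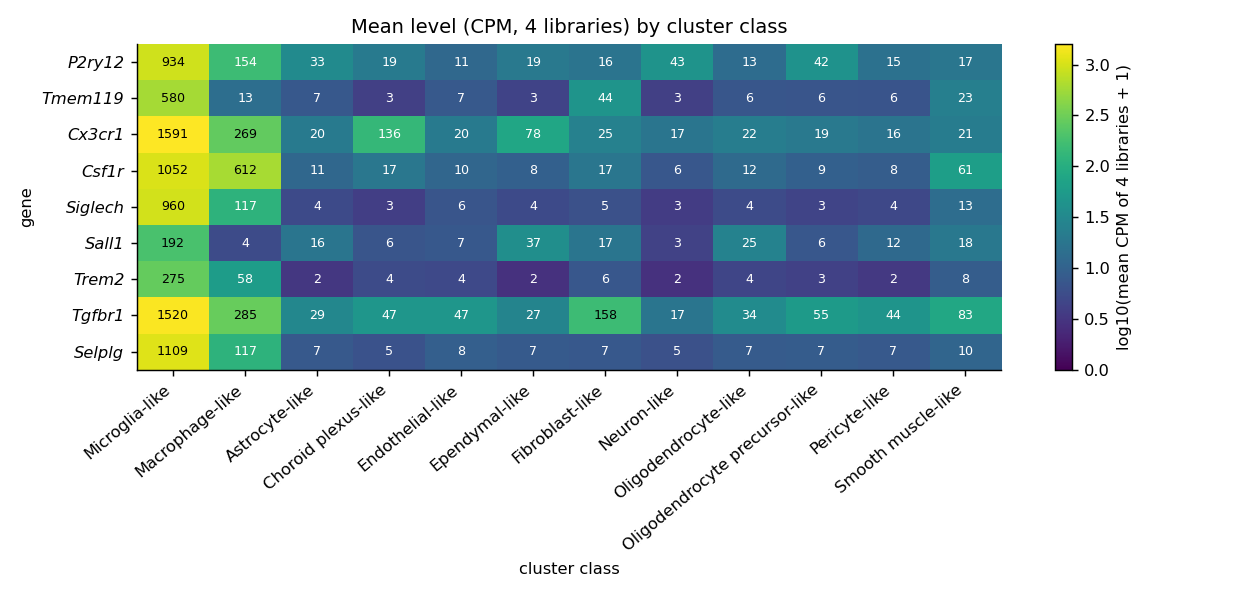
Level of each of the 9 genes in 12 cluster classes (mean CPM of the libraries, colour on a log scale). The microglia-like column is the highest for all 9 genes, Csf1r is the only gene above 500 CPM in macrophage-like nuclei, Cx3cr1 reaches 136 CPM in choroid plexus-like nuclei and Tgfbr1 158 CPM in fibroblast-like nuclei.

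All 9 genes were also lower in the gated macrophages than in the gated microglia of all 4 libraries. The median log2 ratio of microglia over macrophages was 3.13, 3.32, 3.30 and 3.71, and 9 of 9 genes were past the fold on the higher side in microglia, where 22.9%, 25.8%, 14.5% and 20.0% of all genes tested were. Macrophages were deeper in the library labelled striatum AAV-VEGF-C, with a median of 4225 UMIs against 1773.5 to 1875.5 in the others. The markers of microglia (11 genes) summed to 1483, 1219, 1380.0 and 940 CPM in the gated macrophages, beside 5902, 6778, 5515 and 7546 CPM in gated microglia, and their part in the members' levels in macrophages was not tested. Against macrophages inside the macrophage-like cluster alone, the median log2 ratio was 1.84, 2.65, 2.00 and 1.99 over the 7, 9, 8 and 9 genes with a UMI in both. With the genes at 0 there set to a floor of 3 UMIs per library it was 1.84, 2.65, 2.2 and 1.99. These ratios limit the macrophages alone and keep all gated microglia, whose levels were lower than inside microglia-like clusters. In cortex AAV-CTRL, P2ry12 was at 618 CPM in all gated microglia and 962 CPM in those inside the clusters.

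The far more numerous nuclei outside the gate held a large part of the members' transcripts, some of them nuclei of microglia-like clusters that were not called microglia. Those held 4.69% to 14.5% of the Siglech UMIs, 1.85% to 4.62% of those of P2ry12 and between 1.71% and 12.1% for the other members. The order of the 9 genes by the share of UMIs in the microglia gate ran from Siglech (67.4% to 73.9%) and Selplg (57.8% to 70.0%) over Trem2 (49.5% to 62.7%), Tmem119 (47.2% to 65.4%), Csf1r (46.5% to 62.0%), Cx3cr1 (39.7% to 51.5%) and Tgfbr1 (33.7% to 44.9%) to Sall1 (17.8% to 32.5%) and P2ry12 (20.3% to 25.6%). Neighbours in this order overlapped over the libraries, except that Tgfbr1 and Sall1 did not. All 9 shares were lowest in the library labelled striatum AAV-CTRL, which also had the lowest share of microglia among its nuclei. Macrophages held 5.22%, 5.85%, 13.5% and 8.59% of the Csf1r UMIs and at most 5.68% of those of any other member.

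**Figure D3:**
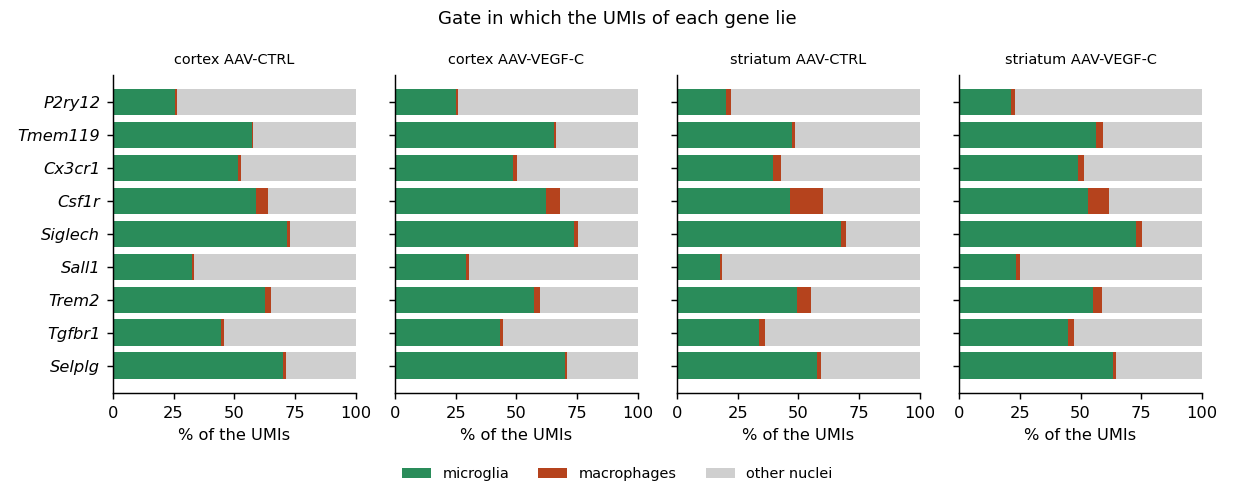
Share of all UMIs of each gene (percent of the gene's UMIs in a library) found in gated microglia, gated macrophages and other nuclei, as stacked bars for the 4 libraries. The microglia part runs from 17.8% for Sall1 in the library labelled striatum AAV-CTRL to 73.9% for Siglech in that labelled cortex AAV-VEGF-C.

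Single microglial nuclei held several of the 9 genes at once. The median microglia had a UMI of 6 of them in each library, macrophages had 2, 2, 1 and 1, and other nuclei had 0. At least 3 of the 9 genes were found in 91.8%, 92.5%, 86.7% and 90.0% of microglia, 31.3%, 28.6%, 23.7% and 27.0% of macrophages and 1.26%, 1.31%, 0.805% and 1.17% of other nuclei. Thinned to 1000 UMIs, the median over the microglia was 5, 5, 4 and 5 genes.

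The summed level of the 9 genes was set against the number of gate UMIs in a nucleus. It was 109, 100, 109 and 122 CPM in nuclei with 0 UMIs of the gate genes and 439, 440, 384 and 304 CPM in the 627, 695, 635 and 656 nuclei with exactly 1. It was 3259, 3614, 2739 and 2500 CPM in the 141, 176, 119 and 82 nuclei with exactly 2, which lie just inside the gate. At 4 gate UMIs the sum was 6230, 7178, 5983 and 5453 CPM, at 5 it was 5729, 6290, 7216 and 7877 CPM, and at 6 or more 7203, 8811, 7370 and 8984 CPM, so that it did not climb at every step. The sum was thus higher just inside the threshold than just outside it in all 4 libraries, and it was higher again in the nuclei with exactly 3, at 5115, 6239, 3991 and 6598 CPM. The share of nuclei in microglia-like clusters went across the threshold from 15.3%, 13.2%, 8.50% and 5.79% to 70.9%, 72.7%, 59.7% and 61.0%. Part of this step is built in, since the gate genes could shape the clusters and were among the markers that named them.

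**Figure D4:**
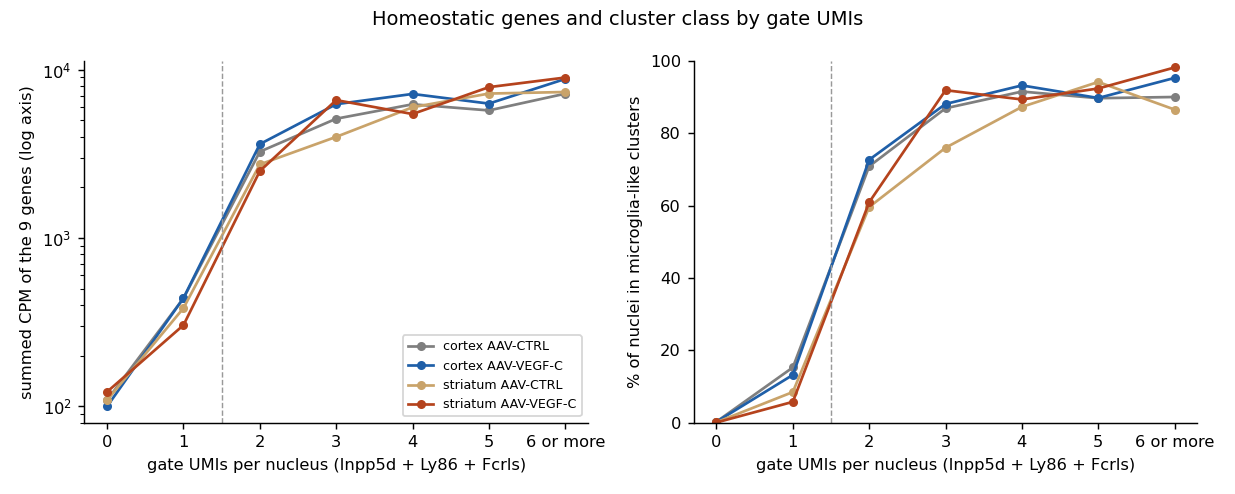
Summed level of the 9 genes (CPM, left) and percent of nuclei in microglia-like clusters (right) against the number of UMIs of Inpp5d, Ly86 and Fcrls in a nucleus, from 0 to 6 or more, for the 4 libraries. Both are higher at 2 UMIs, where the gate begins, than at 1 in all 4 libraries, and nuclei with exactly 2 hold 2500 to 3614 CPM.

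The study compared the AAV groups. In the cortex libraries the 9 genes were close to each other in the gated microglia of both groups, with Tmem119 farthest apart. The median log2 ratio of AAV-VEGF-C over AAV-CTRL was 0.13, beside -0.01 over 12063 genes tested, and ran from -0.17 for Sall1 (-0.50 to 0.15) to 0.52 for Tmem119 (0.35 to 0.70). None of the 9 was past the fold, where 15.3% of all genes tested were. Genes were tested from 20 UMIs in the pair upward, and among the 9 genes the fewest were 151 and 166 for Sall1. With few UMIs a ratio passes the fold more easily by counting error, and its interval leaves 0 less easily. At a minimum of 5 UMIs the share past the fold was 25.0%. Shares of all genes tested, here and in the comparisons below, were thus not matched to the UMIs of the 9 genes. The counting interval lay above 0 for 3 genes, Tmem119, Csf1r (0.27, 0.15 to 0.40) and Siglech (0.28, 0.14 to 0.41), and for 5.11% of all genes tested, and below 0 for none of the 9 and for 6.80% of all. In microglia the 458 Tmem119 UMIs of the library labelled cortex AAV-CTRL thus compared with 674 in that labelled cortex AAV-VEGF-C.

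Inside microglia-like clusters the same 3 genes of the cortex libraries kept intervals above 0, where 3.56% of genes did, and none of the 9 lay below 0, where 3.35% did. There Tmem119 was at 554 and 733 CPM, a log2 ratio of 0.40 (0.22 to 0.58), with Csf1r at 0.15 (0.02 to 0.28) and Siglech at 0.16 (0.02 to 0.30). The median of the 9 genes was -0.03. P2ry12 (-0.03), Cx3cr1 (-0.07), Selplg (-0.04), Sall1 (-0.25), Tgfbr1 (-0.12) and Trem2 (0.12) had intervals that spanned 0.

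In the striatum libraries all 9 genes had higher values in the gated microglia of the AAV-VEGF-C library, and most of that difference was absent inside the microglia-like clusters. Over all gated microglia the median log2 ratio was 0.45, beside 0.05 over 11833 genes tested, from 0.23 for Sall1 (-0.11 to 0.57) to 0.52 for Trem2 (0.22 to 0.82). The interval lay above 0 for 8 of the 9 genes, Sall1 being the exception. Of all genes tested, 9.74% had one above 0 and 9.49% below. None of the 9 was past the fold, where 22.5% of all genes tested were. As in the cortex libraries, these shares were not matched to the UMIs of the 9 genes. Cx3cr1 was at 0.50 (0.38 to 0.62), Csf1r at 0.51 (0.35 to 0.66) and Selplg at 0.50 (0.36 to 0.64), while P2ry12 was at 0.28 (0.12 to 0.44), Tgfbr1 at 0.28 (0.16 to 0.40) and Tmem119 at 0.35 (0.14 to 0.56).

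The make-up of the gate differed between these libraries. In the library labelled striatum AAV-CTRL 78.1% of the gated nuclei lay in microglia-like clusters, against 88.5% in that labelled striatum AAV-VEGF-C, and the 6 neuronal markers summed to 8246 and 5160 CPM. Inside the microglia-like clusters the median of the 9 genes was 0.07, and only Selplg had an interval above 0 (0.15, 0.00 to 0.30), where 2.77% of genes did, and none below 0, where 3.22% did. There P2ry12 was at 962 and 954 CPM, Tmem119 at 559 and 557 CPM, Cx3cr1 at 1588 and 1723 CPM, and Tgfbr1 at 1752 and 1608 CPM. The log2 ratio of Tmem119, 0.40 in the cortex libraries, was -0.00 (-0.22 to 0.21) in the striatum libraries, and the difference between both regions was not tested.

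**Figure D5:**
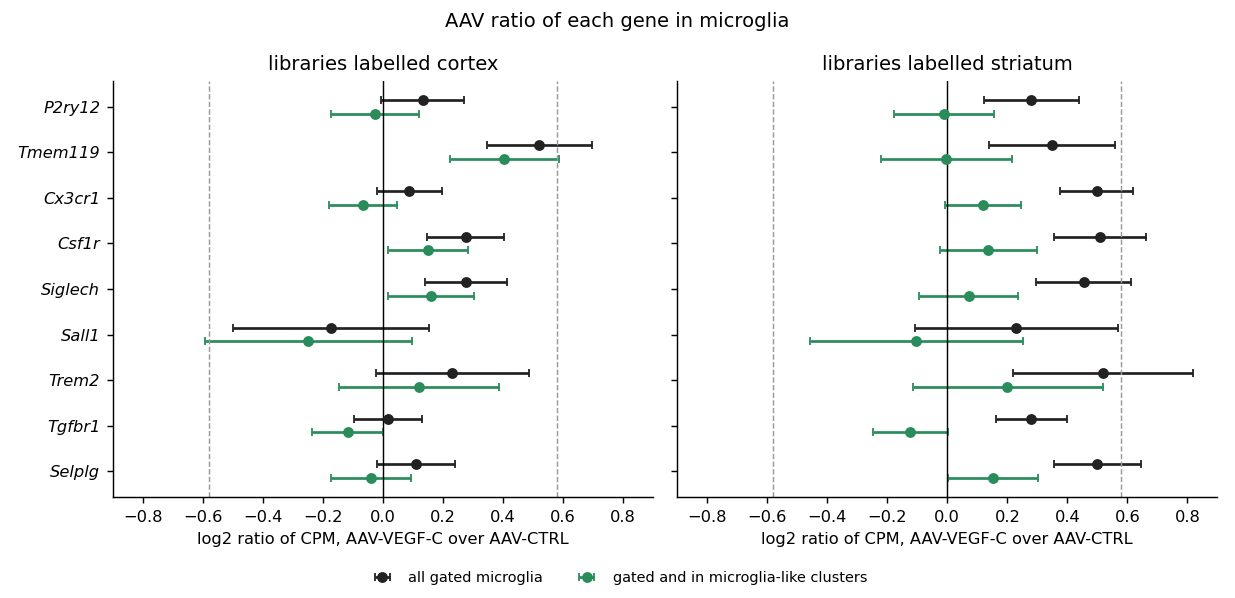
Log2 ratio of AAV-VEGF-C over AAV-CTRL for each of the 9 genes in the cortex and striatum libraries, for all gated microglia and for those inside microglia-like clusters, with 95% counting intervals; dashed lines mark 0.58 in both directions. In the striatum libraries the points inside the clusters lie near 0, from -0.12 for Tgfbr1 to 0.20 for Trem2, while in the cortex libraries Tmem119 stays at 0.40.

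The share of gated microglia among kept nuclei followed the same pattern. The log2 ratio of AAV-VEGF-C over AAV-CTRL was -0.05 (-0.22 to 0.11) in the cortex libraries and 0.47 (0.28 to 0.66) in the striatum libraries. Shares of nuclei depend on the pieces of tissue that were pooled, and the region markers above differ from the labels, so the part of dissection was not tested.

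Between the region labels the 9 genes differed little within AAV-CTRL and in both directions within AAV-VEGF-C. Within AAV-CTRL the median log2 ratio of striatum over cortex was -0.19 in all gated microglia, with 4 of 9 intervals below 0 (Csf1r -0.35, Cx3cr1 -0.20, Siglech -0.20 and Selplg -0.19), where 8.96% of all genes tested were. Inside microglia-like clusters the median was 0.00, no interval lay below 0, where 8.54% of genes did, and only Tgfbr1 was above it (0.22, 0.09 to 0.35), where 8.36% of genes were. Sall1 was at 0.00 (-0.34 to 0.34) over all gated microglia.

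Within AAV-VEGF-C, Sall1 (0.41, 0.08 to 0.73), Tgfbr1 (0.28, 0.17 to 0.39), Cx3cr1 (0.21, 0.10 to 0.31) and Selplg (0.20, 0.07 to 0.33) had intervals above 0, where 15.9% of all genes tested did. Tmem119 was below 0 (-0.34, -0.51 to -0.16), where 10.9% were. Inside the microglia-like clusters these 5 genes kept their direction, at 0.37, 0.21, 0.16, 0.15 and -0.40 in this order, and Csf1r joined Tmem119 at -0.17 (-0.31 to -0.04). The background there was 9.64% above and 9.65% below 0. None of the 9 genes was past the fold within either AAV group, where 23.8% and 28.5% of all genes tested were. These shares, and those of intervals off 0 in both AAV groups, were not matched to the UMIs of the 9 genes. Tgfbr1 thus had an interval above 0 in both AAV groups inside the clusters, with 1505, 1387, 1752 and 1608 CPM. Sall1 had ratios of the same sign there, 0.22 (-0.14 to 0.58) within AAV-CTRL and 0.37 within AAV-VEGF-C, with 192, 162, 224 and 209 CPM. The oligodendrocyte markers (6 genes) summed to 956, 879, 2334 and 2218 CPM in the same nuclei, and their part in these region values was not tested.

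Tyrobp, the adapter of Trem2 and Siglech, was past the fold in the striatum libraries, as neither receptor was. Its log2 ratio of AAV-VEGF-C over AAV-CTRL in gated microglia was 1.03 (0.61 to 1.46) in the striatum libraries, from 71 and 150 UMIs, and 0.45 (0.15 to 0.75) in the cortex libraries. Inside microglia-like clusters the striatum ratio was 0.78 (0.32 to 1.25). Striatum over cortex was -0.88 (-1.30 to -0.47) within AAV-CTRL, and -0.83 inside the clusters. Apoe went the other way in the striatum libraries, at -0.70 (-0.86 to -0.53) and inside the clusters at -0.86 (-1.15 to -0.58). Tgfbr2 was at 0.04 (-0.17 to 0.26) in the cortex and 0.32 (0.10 to 0.54) in the striatum libraries. Tgfb1 was at 0.06 (-0.27 to 0.38) and 0.27 (-0.09 to 0.63).

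Other genes of microglia were read from 4 lists. Of 20 further homeostatic genes, 1 was past the fold on the higher side and 0 on the lower in the cortex AAV comparison, with a median log2 ratio of 0.18, and 3 and 0 in the striatum comparison, with a median of 0.43. Of all genes tested, 6.13% were higher and 9.17% lower in the cortex libraries, with a median of -0.01. In the striatum libraries 9.98% were higher and 12.5% lower, with a median of 0.05. Inside the clusters the medians were 0.14 and 0.10, where those of the 9 genes were -0.03 and 0.07. P2ry13, a purinergic receptor related to P2ry12, was the gene past the fold in the cortex libraries (0.64, 0.31 to 0.97), and inside the clusters it was at 0.45 (0.11 to 0.80). In the striatum libraries Gpr165 (1.61, from 19 and 6 UMIs), the complement gene C1qb (0.62) and the protease gene Ctss (0.61) were past it, and inside the clusters C1qb was at 0.23 and Ctss at 0.26.

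Of the 21 genes of the TGF-beta pathway, 19 could be tested in the cortex libraries, 0 past the fold on the higher side and 6 on the lower, with a median of -0.17, where 9.17% of all genes tested were past the fold on the lower side. The lower genes were led by Ltbp1 (-1.62, from 6 and 18 UMIs), Itgb8 (-0.94), Acvrl1 (-0.89) and Tgfbr3 (-0.71), and also held the endothelial co-receptor Eng (-0.70). The endothelial markers (6 genes) summed to 1585 and 600 CPM in the gated microglia of the cortex libraries and to 90.8 and 68.1 CPM inside the microglia-like clusters. The median of the list inside the clusters was -0.14. Eng was at -0.04 (-0.59 to 0.52) there. Itgb8 was at -0.88 from 13 and 21 UMIs, Tgfbr3 at -0.55 from 7 and 9, Acvrl1 at -0.45 from 10 and 12, and Ltbp1 at -0.19 from 1 and 1. The intervals of these genes spanned 0, and the part of endothelial RNA in the list was not tested. In the striatum libraries 1 of 18 was higher and 1 lower, where 9.98% and 12.5% of all genes tested were. These were Skil, a repressor of SMAD signalling, at 0.70 (0.29 to 1.12) and Itgb8 at -0.97. Skil kept its ratio inside the clusters, at 0.70 (0.21 to 1.2).

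Of 17 genes of activated microglia, 13 could be tested, and 2 were higher and 1 lower in both AAV comparisons, with medians of 0.14 and 0.12. Those with an interval off 0 were Tyrobp and Apoe, given above, and the lysosomal gene Cd68 (0.61, and inside the clusters 0.28, -0.29 to 0.88) in the striatum libraries. Of 14 transcription factors of microglia, 0 were higher and 1 lower in the cortex libraries (Cebpb, -1.33 from 11 and 27 UMIs) and 1 and 0 in the striatum libraries. Over all genes tested, 6.13% were past the fold on the higher and 9.17% on the lower side in the cortex and 9.98% and 12.5% in the striatum libraries.

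Levels were compared over 46 sums of 12 cluster classes by library, as Pearson r of log2(CPM + 1) with the mean of the members, across points that share libraries and clusters. Among the genes that followed the 9 genes most closely were 1810011H11Rik, Ptgs1, Rhoh, Gm40645, P2ry13, Zfp652, Gna15 and Susd3 (r of 0.94 to 0.92). The gene most alike to a member, given for 8 of the 9, was Pag1 for P2ry12 (0.93), Olfml3 for Tmem119 (0.90), Zfp710 for Cx3cr1 (0.92), C1qa for Csf1r (0.98), P2ry13 for Siglech (0.94), Slc2a5 for Sall1 (0.72), Cd84 for Trem2 (0.94) and Havcr2 for Selplg (0.93). Among the members themselves Siglech was the closest to their mean (0.97) and Sall1 the farthest from it (0.57). Each member is part of that mean, which raises its r, so these values do not compare with those of the genes outside the 9. These are descriptions of 17423 genes over classes that the clustering itself had formed.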

How the data were processed

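The authors prepared nuclei from pulverized, pooled tissue, made droplet libraries with 10x Genomics 3′ chemistry and deposited UMI counts per gene and nucleus, whole numbers that were not normalized. The counts came, per the file headers, from cellranger 5.0.1, and the submitters' processing notes name Cell Ranger 5.1.1 and the mm10 build. The annotation, the strand setting and the treatment of intronic reads are not given in the sources used here. The clusters and Wilcoxon tests of the study, which take nuclei as replicates, were not used.

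Each library was read as a sparse matrix (Python 3.11.15, scanpy 1.11.5). The lowest barcode held 719 UMIs. Doublets were called per library with Scrublet at an expected rate of 0.08, which marked 4.69%, 6.00%, 8.29% and 4.56% of nuclei, and were left out. Pairs of libraries shared 76 to 118 barcodes, of gated microglia at most 1. UMIs were summed over the nuclei of a gate or class and scaled to CPM. Nuclei were clustered (5000 variable genes, 50 components, 15 neighbours, Leiden at a resolution of 1.2, immune and vascular clusters again at 0.8; leidenalg 0.10.2) and clusters named from marker lists. The scoring of the names was revised after the clusters had been seen, so names carry "-like". Ependymal-like and smooth muscle-like nuclei numbered under 50 in some libraries.

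Levels have exact Poisson, shares exact binomial (Clopper-Pearson) and ratios exact conditional binomial 95% intervals (scipy 1.17.1), which cover counting error only. Ratio code was tested on simulated counts. The macrophage gate had no threshold of its own, and 2 UMIs were used as for microglia. The members and lists were chosen with earlier results of these data known, so a list is described by its counts and median. List genes are named where past the fold with an interval off 0, at most 4 per list and comparison by size, and Eng was named beside them after its values had been seen. Restrictions to gated nuclei inside clusters were chosen after seeing the data. Gene positions are those of GENCODE vM21. Some genes that these rules name are not reported here.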

Additional observations from a re-analysis of the deposited data

Results flagged for a closer look

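Among the genes of the lists, 2 had counting intervals on opposite sides of 0 in both AAV comparisons. Eng, an endothelial co-receptor of TGF-beta, had a log2 ratio of AAV-VEGF-C over AAV-CTRL in gated microglia of -0.70 in the cortex libraries (-1.08 to -0.32) and 0.42 in the striatum libraries (0.05 to 0.79). Inside microglia-like clusters it was at -0.04 (-0.59 to 0.52) and 0.63 (-0.04 to 1.32). Ets1, a transcription factor shared by lymphoid and endothelial cells, was at -0.51 in the cortex (-0.91 to -0.12) and 0.46 in the striatum libraries (0.09 to 0.83), and inside the clusters at -0.24 (-0.80 to 0.32) and 0.23 (-0.30 to 0.77). The endothelial marker list of 6 genes moved the same way in the gated microglia, with 1585, 600, 1180 and 1686 CPM in the order of libraries used above, and its part was not tested. The difference between the regions was not tested for either gene.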

How the results depend on the processing

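No paired analysis was possible because each group has 1 library and no replicate numbers form a block, and for the same reason no replicate could be left out. A fit of AAV group and region together over the 4 libraries was not run. Over 214 results and 10 settings, 668 of 1099 recomputed values stayed within the counting interval of the value reported (or within 1.5 times it, for counts and shares of genes past the fold), 418 moved by more and 13 changed sign. The median log2 ratio of the 9 genes between AAV groups in the cortex libraries was -0.0052 with doublets kept and -0.027 in gated nuclei of microglia-like clusters. In the striatum libraries it was 0.055 in microglia-like clusters used in place of the gate, 0.071 in gated nuclei of these clusters and 0.15 with nuclei thinned. There P2ry12 was at -0.00086 and -0.012, Tmem119 at -0.0036 and -0.0047, and Tgfbr1 at -0.10 and -0.12 in the microglia-like clusters and in their gated nuclei. Striatum over cortex within AAV-CTRL had a median of -0.46 with nuclei of both gates as microglia, 0.011 in microglia-like clusters and 0.00033 in their gated nuclei, with Cx3cr1 at 0.060 in the clusters and Siglech at 0.016 in their gated nuclei, and within AAV-VEGF-C it was -0.15 with nuclei of both gates. Microglia over macrophages had a median of 1.84 in cortex AAV-CTRL, 2.00 in striatum AAV-CTRL and 1.99 in striatum AAV-VEGF-C with macrophages of the macrophage-like cluster, where Csf1r was at -0.030, -0.37 and -0.33, and of 4.6 in striatum AAV-VEGF-C with nuclei of both gates as microglia. Microglia over other nuclei had medians of 6.55, 6.73, 6.69 and 6.71 in gated nuclei of microglia-like clusters, in the order of libraries used above. It was 5.64 (cortex AAV-CTRL), 6.01 (cortex AAV-VEGF-C) and 6.08 (striatum AAV-VEGF-C) with median-ratio scaling, 5.69, 5.83 and 5.79 in these libraries with nuclei thinned, and 5.92, 5.69 and 5.98 with doublets kept in all libraries but cortex AAV-CTRL, in the order used above. It was 6.04 in cortex AAV-VEGF-C with a gate of 3 UMIs, and 5.44 in striatum AAV-CTRL and, likewise with nuclei of both gates, 5.92 in striatum AAV-VEGF-C. The share of genes past the fold in the cortex AAV comparison was 25.0% at a minimum of 5 UMIs. Apart from the construction of each setting, the cause of these shifts was not tested. Low counts limit the macrophage values of Tmem119 (2 to 21 UMIs) and Sall1 (4 to 11 UMIs).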

Other observations

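Some microglial genes outside the 9 differed between the region labels in both AAV groups and remained so inside microglia-like clusters. Mef2c, a transcription factor of microglia and of many neurons, was at 1574, 1845, 776 and 995 CPM in gated microglia, in the order of libraries used above. Its log2 ratio of striatum over cortex was -1.02 (-1.14 to -0.90) within AAV-CTRL and -0.89 (-0.995 to -0.79) within AAV-VEGF-C, and -0.76 in both inside the clusters. Past the fold were 23.8% and 28.5% of all genes tested in the gated microglia. The 6 neuronal markers still summed to 4682, 4404, 3827 and 3619 CPM inside the clusters, and their part in the Mef2c values was not tested. Spp1, which encodes osteopontin and is linked to activated microglia, went the other way, at 11 and 63 UMIs within AAV-CTRL (2.82, 1.88 to 3.89) and 19 and 53 UMIs within AAV-VEGF-C (1.77, 0.99 to 2.61). Inside the clusters it gave 3 and 38, and 3 and 30 UMIs. Within AAV-VEGF-C the tetraspanin gene Cd9 was at 0.89 (0.58 to 1.2), and inside the clusters at 0.78 (0.45 to 1.10). The microglia-like clusters themselves divided by region label. The clustering left out the 9 genes but could use the genes named here, so these values are descriptions.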
